A study of Mus musculus with 24 samples.

Results

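Gene deserts are long stretches of a chromosome without protein-coding genes. Here they were every position more than 200 kb from the body of each of 20661 RefSeq protein-coding genes on mouse chromosomes 1 to 19, which gave 731 stretches with 458.9 Mb of 2403 Mb, or 19.1% of the sequence. Their median length was 345 kb, 141 reached 1 Mb and the longest spanned 4.14 Mb. A peak belonged to a desert when its summit lay in one. Over 16 peak lists, 67212 peaks did and 484305 other peaks on chromosomes 1 to 19 did not, of 576562 peaks in the complete lists.

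The lists come from CUT&RUN, in which an antibody directs a nuclease to cut the DNA around its target, on kidney cells sorted for the red reporter tdTomato. The mice were males aged 9 to 12 weeks with the genotype Sox9IRES-CreERT2/+:R26RtdT/+, in which tamoxifen permanently labels cells that express Sox9 and their descendants. All had bilateral ischaemia-reperfusion injury with tamoxifen given at that time, and no uninjured group was used. Cortex and outer medulla were dissociated, and pellets of about 100000 sorted cells were lightly fixed in 0.2% PFA, frozen and split in 3, for a Sox9 antibody, for H3K4me3 as the positive control and for an input. Each antibody had 4 biological replicates at 48 h and 4 at 10 days. The times are those of the titles; the label for cell type says day 10 throughout, also where the title says 48 h. Both antibody lists of a pellet share 1 input, the 8 inputs were not analysed here as samples, and total reads per library are unknown, which leaves the spread between replicates as the only measure of precision.

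Some deserts hold distant enhancers of the developmental genes beside them, and the region around Sox9 itself is a known example. Others flank genes of cell adhesion and the synapse and have few known regulatory elements. Sox9 is a transcription factor of the HMG-box family that is induced in injured tubule cells and often binds enhancers. H3K4me3 is a histone mark of active promoters and is therefore sparse where genes are sparse.

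Desert peaks at the start of a transcript were rare. The 3 sequences shown are those of the desert noncoding genes whose start-site window (250 bases before to 50 after the start, RefSeq, GRCm38.p6) had a peak in at least 2 lists; capitals mark the bases that a peak covered. They are the long noncoding RNAs 2410018L13Rik (chr12:23010194-23010493, minus strand, 265 kb from Gm38538), Gm32649 (chr11:56623522-56623821, minus strand, between Nmur2 and Gria1) and Gm34297 (chr10:98537238-98537537, plus strand, 377 kb from Atp2b1).
2410018L13Rik: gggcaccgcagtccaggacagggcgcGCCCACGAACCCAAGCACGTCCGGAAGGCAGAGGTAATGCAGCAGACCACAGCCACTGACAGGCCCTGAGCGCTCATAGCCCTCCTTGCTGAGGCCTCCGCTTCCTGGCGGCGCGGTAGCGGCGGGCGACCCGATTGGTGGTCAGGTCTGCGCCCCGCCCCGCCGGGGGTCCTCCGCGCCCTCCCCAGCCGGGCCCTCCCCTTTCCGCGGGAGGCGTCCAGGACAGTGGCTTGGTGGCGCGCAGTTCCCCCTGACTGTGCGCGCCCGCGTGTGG
Gm32649: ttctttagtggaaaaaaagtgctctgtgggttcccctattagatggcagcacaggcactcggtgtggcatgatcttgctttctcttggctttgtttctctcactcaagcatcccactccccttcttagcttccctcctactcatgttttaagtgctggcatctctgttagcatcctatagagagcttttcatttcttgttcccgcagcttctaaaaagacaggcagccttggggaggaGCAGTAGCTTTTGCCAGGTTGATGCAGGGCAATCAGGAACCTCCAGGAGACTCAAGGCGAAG
Gm34297: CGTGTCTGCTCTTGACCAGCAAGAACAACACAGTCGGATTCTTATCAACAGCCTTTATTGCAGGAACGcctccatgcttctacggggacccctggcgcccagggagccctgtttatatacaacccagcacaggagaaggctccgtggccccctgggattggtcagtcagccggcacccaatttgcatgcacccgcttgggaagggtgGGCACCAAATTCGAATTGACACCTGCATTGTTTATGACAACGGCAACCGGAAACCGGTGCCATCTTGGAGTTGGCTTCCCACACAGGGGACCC
The 2410018L13Rik window was 72.7% G or C with 31 CG pairs, and peaks of 3 lists covered 274 of its 300 bases. Those lists were Sox9 10 days replicate 1 and replicate 4, and H3K4me3 10 days replicate 2, whose peak was 359 bp wide. In Gm32649 (48.7% G or C, 3 CG pairs), an H3K4me3 peak of 10 days replicate 3 covered all 62 capital bases. A Sox9 peak of 10 days replicate 4 covered most of these bases but not all. In Gm34297 (56.3% G or C, 12 CG pairs), peaks from the same 2 lists covered opposite ends of the window, 161 bases in all. Every one of these 7 peaks came from a 10 day list, which was not tested. The 10 day lists also held more desert peaks on average, 5000 against 1799 at 48 h for Sox9 and 6582 against 3423 for H3K4me3.

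Deserts were poorer in peaks than the rest of the chromosomes for both antibodies. Sox9 peaks were 0.572 ± 0.0637 times as dense in deserts as elsewhere and H3K4me3 peaks 0.562 ± 0.0311 times (mean ± SD, n = 8 lists each). Per Mb of desert, the 4 Sox9 lists of 48 h had 1.89, 6.33, 3.46 and 3.99 peaks, and those of 10 days had 25.4, 3.68, 4.15 and 10.3. The H3K4me3 lists had 7.20, 8.26, 8.68 and 5.70 peaks per Mb at 48 h and 22.5, 7.59, 19.2 and 8.13 at 10 days. The number of peaks thus varied widely between replicates of a group, while the ratio of desert to other sequence stayed between 0.490 and 0.708 in the 16 lists. On the log2 scale the mean difference was -0.81 for Sox9 and -0.83 for H3K4me3, below 0 in 8 of 8 lists of each antibody (two-sided exact sign-flip permutation test, p = 0.0078, the smallest that 8 lists allow; Benjamini-Hochberg adjusted over 20 tests, 0.0313). Desert peaks made up 10.4% to 14.3% of the autosomal peaks of a list, against 19.1% of the sequence.

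**Figure D1:**
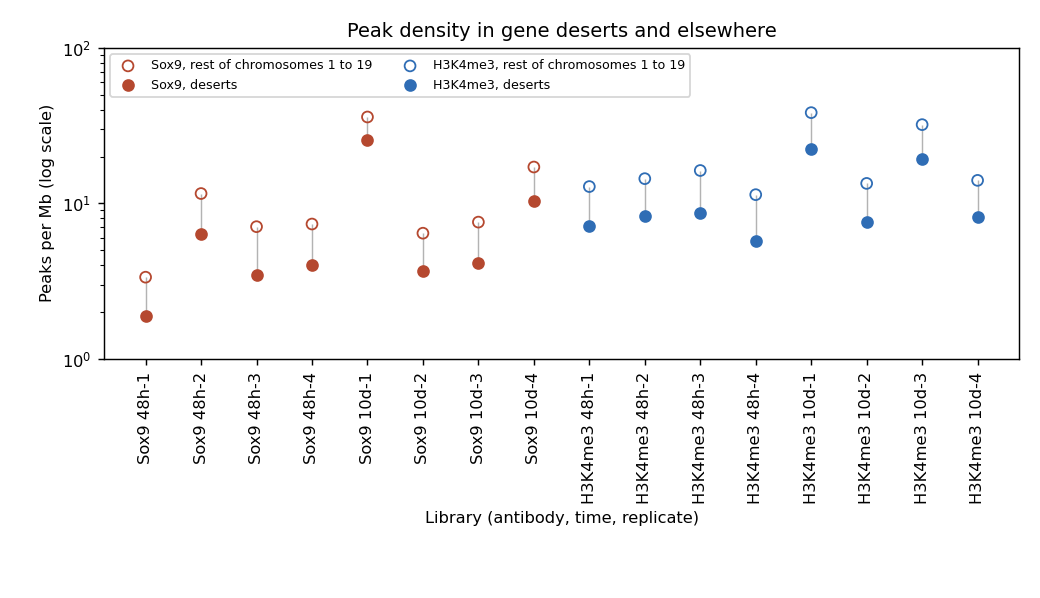
Peaks per Mb (log scale) in deserts (filled) and in the rest of chromosomes 1 to 19 (open) for each of the 16 lists, Sox9 in red and H3K4me3 in blue. The filled point lies under the open one in every list, and Sox9 10 days replicate 1 has the most desert peaks, 25.4 per Mb.

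The deficit was graded and had no edge at 200 kb. Relative to the mean of its list, density was 1.21 inside gene bodies for either antibody, 1.13 (Sox9) and 1.14 (H3K4me3) within 10 kb of a gene, and 0.774 and 0.761 between 150 and 200 kb. Just inside the deserts, at 200 to 250 kb, it was 0.732 ± 0.0510 and 0.741 ± 0.0305 (SD, n = 8 lists). It was 0.549 and 0.538 between 500 and 1000 kb, and 0.520 and 0.497 beyond 1000 kb. The bin of 150 to 200 kb was denser than that of 200 to 250 kb in 15 of 16 lists, and 300 to 500 kb denser than 500 to 1000 kb in 16 of 16. From 500 to 1000 kb to the sequence beyond it, density fell in 14 of 16 lists. Assembly gaps and sequence to which reads cannot be assigned were not removed from the area, and their part in the gradient was not tested.

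**Figure D2:**
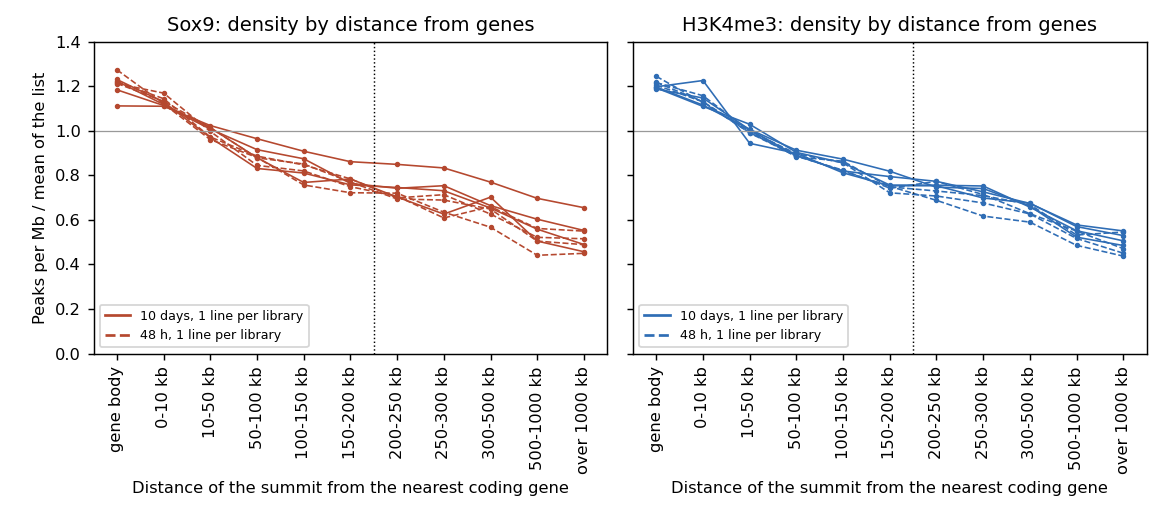
Peaks per Mb divided by the mean of the list, by distance of the summit from the nearest protein-coding gene, with 1 line per list; the dotted line marks 200 kb. Each line ends lower than it starts, from means of 1.21 in gene bodies to means of 0.520 (Sox9) and 0.497 (H3K4me3) beyond 1000 kb; the highest Sox9 line in the deserts is 10 days replicate 1.

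Each of the 19 chromosomes showed the deficit in 16 of 16 lists. Mean ratios were lowest on chromosome 11 (0.447 for Sox9, 0.445 for H3K4me3) and chromosome 17 (0.449 and 0.441). Chromosome 9 had the highest Sox9 ratio, 0.749, and chromosome 13 the highest H3K4me3 ratio, 0.70. Deserts took up between 11.1% of a chromosome (chromosome 7) and 26.4% (chromosome 3).

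With all lists kept, no difference in desert peak number or density between times or antibodies passed after adjustment. Sox9 lists held 1799 ± 845 desert peaks at 48 h and 5000 ± 4663 at 10 days (SD, n = 4), with numbers of 867, 2907, 1590 and 1831 against 11678, 1689, 1903 and 4729. The times overlap, and the log2 difference in number of 1.15 did not pass (two-sided exact permutation of 4 against 4, p = 0.171, adjusted 0.308; the smallest p possible is 0.0286). Without 10 days replicate 1 this difference was 0.59. The density ratio was 0.18 higher at 10 days on the log2 scale for Sox9 (exact permutation p = 0.0857, adjusted 0.206) and 0.10 higher for H3K4me3 (p = 0.0571, adjusted 0.163). H3K4me3 desert peaks numbered 3423 ± 609 at 48 h and 6582 ± 3490 at 10 days (exact permutation p = 0.2, adjusted 0.308). Between antibodies, the density ratio differed by 0.02 (log2; exact permutation of 8 against 8, p = 0.788) and the number by -0.86 for Sox9 minus H3K4me3 (p = 0.0928, adjusted 0.206). Paired by pellet, the same difference in number had an exact sign-flip permutation p of 0.0469, adjusted 0.134. Without Sox9 10 days replicate 1, the library with the most Sox9 peaks, the difference in number was -1.18 (exact permutation, adjusted p = 0.0391) and passed. The difference between antibodies did not itself differ detectably between times for density, number, width or recurrence (exact permutation of the 8 pellet differences, p between 0.514 and 0.8).

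Most desert peaks were narrow and low. Their median width ran from 123 to 164 bp in the Sox9 lists and from 119 to 143 bp in the H3K4me3 lists. H3K4me3 desert peaks were 2.38 bp narrower at the median than peaks elsewhere (133 against 136 bp on average; narrower in 8 of 8 lists, exact sign-flip permutation p = 0.0078, adjusted 0.0313). The Sox9 difference of -1 bp did not pass (p = 0.188, same exact test, adjusted 0.308). Height was read in steps: the pileup at the summit, solved from the authors' fold and p, was in at least 99.4% of the peaks of each list a whole multiple (within 0.05) of 1 value particular to that list, its step, and no peak lay between 1 and 2 steps. What a step stands for was not tested. In the deserts, 2.08% to 3.84% of Sox9 peaks and 2.15% to 3.59% of H3K4me3 peaks reached 2 steps, and the remainder stood at 1.

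The share of peaks of 2 or more steps was 2.94% in deserts and 2.98% elsewhere for Sox9, and 2.90% and 4.19% for H3K4me3. Neither difference passed (exact sign-flip permutation, p = 0.883 and 0.0234, adjusted 0.883 and 0.0781). For H3K4me3 the share was lower in deserts in 7 of 8 lists, and 10 days replicate 1 had the widest gap, 3.55% against 8.24%. Without the recurrent regions both differences passed, at -0.732 points for Sox9 and -1.64 for H3K4me3 (exact sign-flip permutation, adjusted p = 0.0391 and 0.026). They also passed with the bodies of all RefSeq genes (-1.69 and -1.82), and that of H3K4me3 passed at distances of 100 kb (-1.21) and 500 kb (-2.02), where Sox9 had -0.215 and -0.768 and did not pass. Peaks of 500 bp or more made up 0.111% to 1.38% of desert peaks (median of lists 0.681%) and 0.154% to 0.316% of other peaks (median 0.248%). Their share was higher in deserts in 15 of 16 lists, by little in H3K4me3 48 h replicate 1 (0.242% against 0.237%), and lower in Sox9 10 days replicate 1 (0.111% against 0.169%); it was not tested.

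Few desert positions were found again in another library. Of Sox9 desert peaks, 7.0% ± 2.42 overlapped a peak of any of the 7 other Sox9 lists, against 9.39% ± 2.53 of peaks elsewhere (SD, n = 8). For H3K4me3 the shares were 7.86% ± 1.43 and 12.9% ± 1.45. The differences of -2.39 and -5.00 percentage points were below 0 in 8 of 8 lists each (exact sign-flip permutation p = 0.0078, adjusted 0.0313 for both). Each list is also a partner of the other 7, so the 8 values are not fully independent and p is only a guide. When an overlap had to cover 50% of the shorter peak, the Sox9 difference was -1.38 points. By library, the Sox9 desert shares were 9.46%, 6.23%, 10.0% and 7.15% at 48 h and 2.88%, 7.40%, 8.36% and 4.50% at 10 days. Those of H3K4me3 were 8.02%, 7.84%, 8.26% and 9.14% at 48 h and 5.34%, 8.92%, 6.09% and 9.27% at 10 days. The times overlap for either antibody. Times were compared on a narrower share, the desert peaks that overlap a peak of any of the 3 other lists of the same antibody and time. It was 3.78% ± 0.987 at 48 h and 4.10% ± 2.19 at 10 days for Sox9, and 3.82% ± 0.458 and 5.08% ± 1.70 for H3K4me3 (SD, n = 4), and neither difference passed (exact permutation, p = 0.771 and 0.314). Sox9 and H3K4me3 shares over the 7 other lists differed by -0.864 points (exact permutation p = 0.401).

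A share found again depends on how dense peaks are, so overlaps between lists were also set against the number that their widths and the area would give. Within the Sox9 lists the median ratio of observed to expected overlaps was 11.9 in deserts and 6.27 elsewhere, higher in deserts in 28 of 28 pairs. Within H3K4me3 it was 6.30 and 5.16, higher in deserts in 24 of 28 pairs. The 8 pairs of 1 pellet had 11.4 and 5.78. Pairs share libraries and were not tested. Without the regions that had a peak in 8 or more of the 16 lists, the ratios were 3.61 and 4.00 within Sox9 and 3.54 and 3.78 within H3K4me3, and deserts were the higher in 12 and 10 of 28 pairs. Only the observed overlaps were reduced there, while the expected number still counted the peaks left out. These ratios are thus too low, to an unknown degree in each place, and cannot order deserts and other sequence.

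Among taller peaks the order turned, on a narrower measure in which the peak of the other list also had to reach 2 steps. Of Sox9 peaks of 2 or more steps, 49.5% ± 20.0 overlapped such a peak of another Sox9 list in deserts and 27.8% ± 13.8 elsewhere. For H3K4me3 the shares were 40.9% ± 15.3 and 27.9% ± 8.90 (SD, n = 8). The difference was above 0 in 8 of 8 lists of each antibody (exact sign-flip permutation p = 0.0078, adjusted 0.0391). Here too the lists share partners, so the 8 values are not fully independent. Without the regions with a peak in 8 or more lists, an alternative chosen after the data were seen, it was 10.8% against 7.33% for Sox9 and 15.7% against 16.1% for H3K4me3, and neither passed (exact sign-flip permutation, adjusted p = 0.359 and 0.91). The Sox9 desert peaks of 2 or more steps are few, 25 to 384 per list with all regions kept. Without the recurrent regions they numbered 14 to 362 per list, of which 1 to 11 overlapped such a peak of another list.

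**Figure D3:**
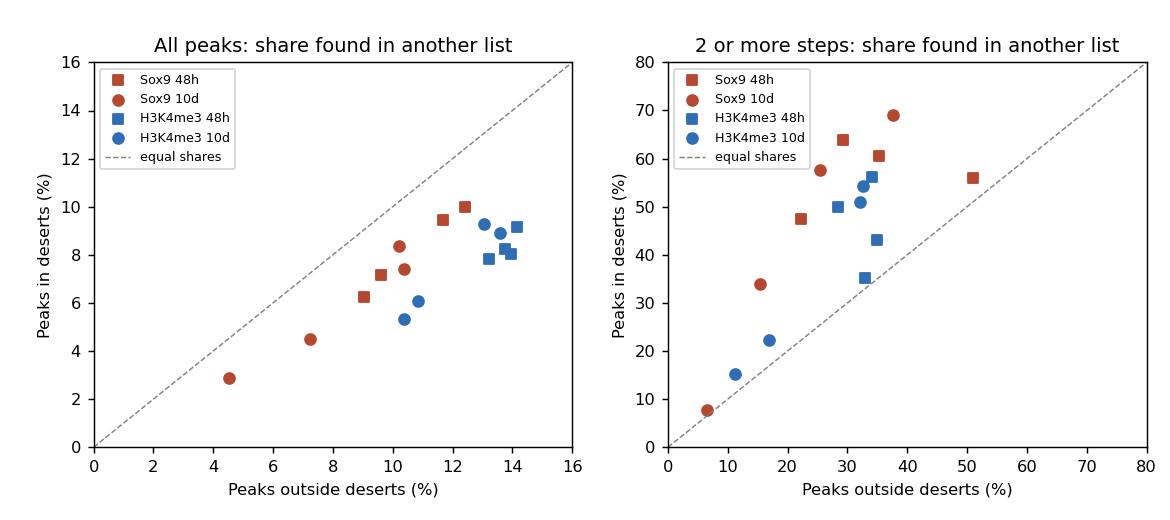
Percent of the peaks of each list that overlap a peak of another list of the same antibody, outside deserts (x axis) and in deserts (y axis), for all peaks (left) and for peaks of 2 or more steps (right). On the right, the overlapped peak also had to reach 2 steps. All 16 points lie under the dashed line of equal shares on the left and above it on the right.

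Merging the 16 lists gave 62971 desert regions. Of these, 60119 had a peak in a single list and 2852 (4.53%) in 2 or more, where 7.37% of all autosomal regions did. A peak in 8 or more lists was found at 36 desert regions (0.0572%), against 0.0798% of all autosomal regions. Sox9 alone held 24693 regions, H3K4me3 alone 36648, and 1630 (2.59%) had peaks of both, against 4.45% of regions outside deserts. All 36 recurrent desert regions held both antibodies, as did all 361 regions outside deserts with a peak in 8 or more lists. Each antibody has 8 lists, so only a region with a peak in exactly 8 could lack one antibody. The rule thus nearly fixed this outcome. A desert region with peaks in 3 or more Sox9 lists and none of H3K4me3 occurred 16 times, and 63 had 3 or more H3K4me3 lists and no Sox9. These are 0.0254% and 0.100% of desert regions, against 0.0329% and 0.294% of regions outside deserts. Within 1 antibody, 552 of 26364 Sox9 desert regions recurred in 2 or more of 8 lists (2.09%; all autosomal regions 3.3%) and 1181 of 38322 H3K4me3 desert regions (3.08%; all 5.31%). In 8 of 8 lists it was 6 Sox9 regions (0.0228%; all 0.018%) and 8 H3K4me3 regions (0.0209%; all 0.0238%).

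The 36 recurrent regions carried a large part of the summed desert height. They held 0.317% to 2.89% of the desert peaks of a list, but 27.4% to 45.7% of the summed desert height (median 37.7%) and 5.73% to 65.5% of the desert peaks of 2 or more steps (median 40.9%). Much of that height was at 1 region, chr2:98666560-98667323. It had 428 to 3116 steps per list, where all desert peaks of a list summed to between 1590 and 16863 steps. The median width of the 36 was 634 bp, against 131 bp for regions of a single list. A merged region spans every peak in it, so peaks of more lists widen it by construction. The 36 regions lay on 15 chromosomes, 7 of them on chromosome 2.

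The authors' fold, the antibody pileup over the local background, ranked low within its list at most of them: on a scale from 0 (lowest fold of a list) to 1, the mean rank was below 0.1 at 22 of 36 regions and above 0.5 at 6, with a median of 0.0507. For regions of a single list the median rank was 0.764, and 1.81% were below 0.1. A list of known artefact regions was not used here.

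The region present in all lists with the highest rank (0.966) lay in the desert between Sall1, a zinc-finger regulator of nephron progenitors, and Tox3, an HMG-box factor (chr8:89754999-89755192, 711 kb from Sall1 and 492 kb from Tox3, intergenic with respect to coding genes). Its Sox9 heights were 29, 31, 34 and 25 steps at 48 h and 36, 13, 13 and 19 at 10 days. Its H3K4me3 heights were 36, 59, 30 and 31 steps at 48 h and 32, 37, 56 and 31 at 10 days. The antibodies overlap, and so do the times. Its fold was above the median fold of the list in 16 of 16 lists, 4.95 times that median at the middle list. The Sall1–Tox3 desert as a whole, 0.803 Mb long, had 185 peaks over the 16 lists, 230 per Mb, and more than the mean desert density in 15 of 16 lists.

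At a region between Nox3, an NADPH oxidase of the inner ear, and Arid1b, a subunit of the SWI/SNF remodelling complex, H3K4me3 stood higher than Sox9 (chr17:4626159-4626611, 368 kb from Arid1b). The Sox9 heights were 51, 51, 64 and 74 steps at 48 h and 38, 36, 27 and 70 at 10 days. H3K4me3 reached 210, 191, 127 and 119 steps at 48 h and 341, 215, 134 and 177 at 10 days, so the lowest H3K4me3 list lay above the highest Sox9 list. The same order held between Bcl11a, a transcriptional repressor, and Fancl, the ubiquitin ligase of the Fanconi anaemia pathway (chr11:25100071-25100208, 927 kb from Bcl11a). There Sox9 had 56, 39, 33 and 51 steps at 48 h and 45, 24, 26 and 50 at 10 days, and H3K4me3 had 147, 163, 126 and 101, then 219, 165, 120 and 131. Fold exceeded the list median in 15 of 16 lists at the first of these regions and in 10 of 16 at the second. A step is particular to its list, so these differences between antibodies also carry the lists' scaling, and they were not tested.

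The tallest desert peaks of all were beside each other in the desert between Lrrc4c, a synaptic adhesion protein, and Iftap, an intraflagellar transport partner. At chr2:98666560-98667323, Sox9 had 475, 757, 443 and 442 steps at 48 h and 3116, 428, 509 and 1229 at 10 days, and H3K4me3 had 936, 909, 1000 and 691, then 2026, 827, 2010 and 755. The neighbouring region chr2:98662239-98662974 had 72 to 580 steps in 15 lists and no peak in H3K4me3 48 h replicate 1. Here the fold was low: 1.37 to 8.42 at the first region, under the list median in 16 of 16 lists, with a mean rank of 0.00672. The desert that holds them, 3.53 Mb long, had 130 peaks per Mb, and its mean log2 ratio to the mean desert density was -0.08.

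A pair of regions at the assembled start of chromosome 9, before Alkbh8, a tRNA-modifying enzyme, had the same profile (chr9:3000036-3005112 and chr9:3005390-3038298). Heights were 29 to 303 and 41 to 335 steps in 14 lists, with folds of 1.34 to 3.54 and 1.52 to 3.06. The lists without them were Sox9 and H3K4me3 of 48 h replicate 1, which come from the same pellet and share an input. At the start of chromosome 16, before the olfactory receptor Olfr161, chr16:3233421-3238455 had 1 to 4 steps in 14 lists.

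The other 4 of the 12 most recurrent regions were low in height. Between Plk2, a stress-responsive kinase, and Actbl2, an actin-like gene (chr13:110743967-110744544), all 16 lists had a peak of 1 to 11 steps, with a median of 7. Between Ets1, a transcription factor, and Kirrel3, a nephrin-like adhesion protein (chr9:33918270-33918831), 14 lists had 1 to 6 steps. Between Fermt1 and Bmp2, a bone morphogenetic protein ligand (chr2:133233680-133234130), all 8 H3K4me3 lists had 2 to 9 steps and 5 Sox9 lists had 1 to 4. Between Gpd2, a mitochondrial dehydrogenase, and Galnt5, a glycosyltransferase (chr2:57629492-57629727), it was again 8 H3K4me3 lists with 3 to 7 steps and 5 Sox9 lists with 1 to 4. Since these 12 were ranked by recurrence, their presence in many lists is a description.

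**Figure D4:**
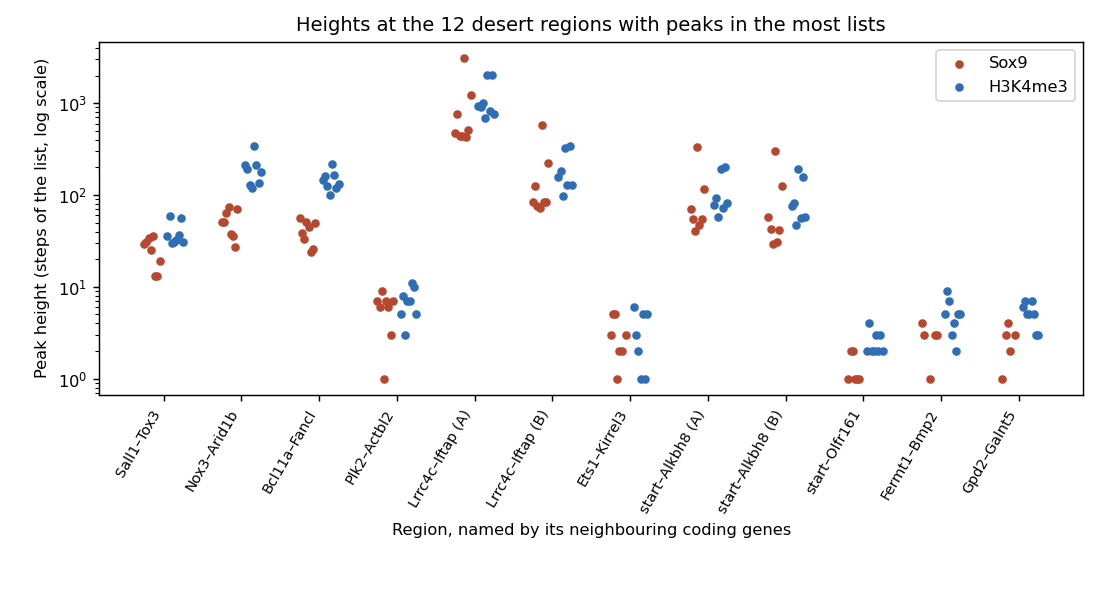
Height of the peak in each list, in steps of that list (log scale), at the 12 desert regions with a peak in the most lists, Sox9 in red and H3K4me3 in blue; lists with no peak there are not drawn. The Lrrc4c–Iftap region A (chr2:98666560-98667323) is the highest, and at Nox3–Arid1b and Bcl11a–Fancl all H3K4me3 points lie above all Sox9 points. A and B number regions with the same neighbours.

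Few desert regions were present at 1 time only. No Sox9 desert region had a peak in 4 of 4 lists of one time and 0 of 4 of the other, in either direction (all autosomal regions: 0.00194% for 10 days and 0% for 48 h, of 205745). For H3K4me3, 2 of 38322 desert regions were present in 4 of 4 lists of 10 days only (all autosomal regions 0.00572%) and 1 in 4 of 4 of 48 h only (all 0.00223%). Those of 10 days lay between Ttll7, a tubulin-modifying enzyme, and Adgrl2, an adhesion receptor (chr3:147666590-147667417), and between Id2, an inhibitor of helix-loop-helix factors, and Rnf144a, a ubiquitin ligase (chr12:26048770-26049529). That of 48 h lay between Sall3, a zinc-finger factor of the Sall1 family, and Galr1, a galanin receptor (chr18:82165208-82165804). Every one stood at 1 step. With 3 or more lists of one time and none of the other, Sox9 had 5 regions for 10 days (all autosomal 0.034%) and 1 for 48 h (all 0.0126%), and H3K4me3 24 (all 0.0973%) and 3 (all 0.0197%). The desert shares, 0.0190%, 0.00379%, 0.0626% and 0.00783%, were under those backgrounds. The 48 h Sox9 region lay between Shh, a morphogen, and Rnf32 (chr5:28928067-28928543) and was named after its values were seen.

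Deserts differed from one another in how many peaks they held. Over the 16 lists the mean was 146 peaks per Mb, 226 of the 731 deserts had a peak in every list, and 10 had none, the longest of these 38.7 kb. Among the 141 of at least 1 Mb, density ran from 97.2 to 289 per Mb with a median of 127. For each list, the count was set against that expected at the list's mean desert density (log2 ratio, 0.5 added to counts).

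The densest of these was the Sall3–Galr1 desert (chr18:81187022-82192495), with 291 peaks, 289 per Mb, and a mean log2 ratio of 1.01 ± 0.35 (SD, 16 lists). Its Sox9 peaks numbered 3, 18, 9 and 15 at 48 h and 40, 8, 7 and 16 at 10 days, and its H3K4me3 peaks 18, 20, 15 and 12, then 42, 19, 31 and 18. All 16 lists were above their own mean. The Gm36448–Dad1 desert (chr14:52741357-54035484, log2 ratio 0.57) was also above in 16 of 16 lists. It contains 108 V segments of the T-cell receptor alpha locus, which RefSeq does not class as protein-coding, so the rule counts it as a desert. The desert between Auts2, a neurodevelopmental gene, and Castor2, a gene of mTORC1 signalling (chr5:132743221-133899747, 0.56), completed the 3 that were above in every list. Dhx35–Gm826 (0.34), Arpp21–Pdcd6ip (0.32) and Slc4a3–Epha4 (0.16) were above in 11, 13 and 11 lists.

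The lowest mean log2 ratios were those of Stxbp6–Nova1 (chr12:45275119-46497894, log2 ratio -1.02 ± 1.07), Kcnj3–Nr4a2 (-0.72), Atxn7l3b–Trhde (-0.70), Cetn3–Mef2c (-0.63), Lcorl–Slit2 (-0.60) and Flrt2–Galc (-0.59). In peaks per Mb the order differs: Atxn7l3b–Trhde had 97.2 and Stxbp6–Nova1 104, whose mean ratio was -1.45 in the Sox9 lists, some with no peak there, and -0.58 in the H3K4me3 lists. Between Stxbp6, a vesicle fusion regulator, and Nova1, a neuronal splicing factor, Sox9 had 0, 1, 2 and 4 peaks at 48 h and 32, 3, 0 and 4 at 10 days. H3K4me3 had 7, 2, 9 and 6 there at 48 h and 27, 6, 19 and 5 at 10 days, and 1 of the 16 lists exceeded its own mean. Both sets were ranked by this ratio, so the ratios describe the choice and were not tested.

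The 5 longest were all below the mean and close to each other: Pcdh20–Pcdh9 (chr14:88671397-92813699, 4.14 Mb, 119 peaks per Mb), Celf4–Pik3c3 (126), Olfm4–Pcdh17 (119), Cntnap5b–Cdh20 (124) and Tenm3–Aga (123). Of their flanking genes, Pcdh9, Pcdh17, Pcdh20, Cdh20, Cntnap5b and Tenm3 code for adhesion proteins. In Pcdh20–Pcdh9 the Sox9 lists had 10, 20, 11 and 13 peaks at 48 h and 110, 5, 10 and 27 at 10 days, and the H3K4me3 lists 21, 31, 24 and 22, then 68, 27, 65 and 30. The longest stretch with no peak in any list was 51.9 kb there.

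**Figure D5:**
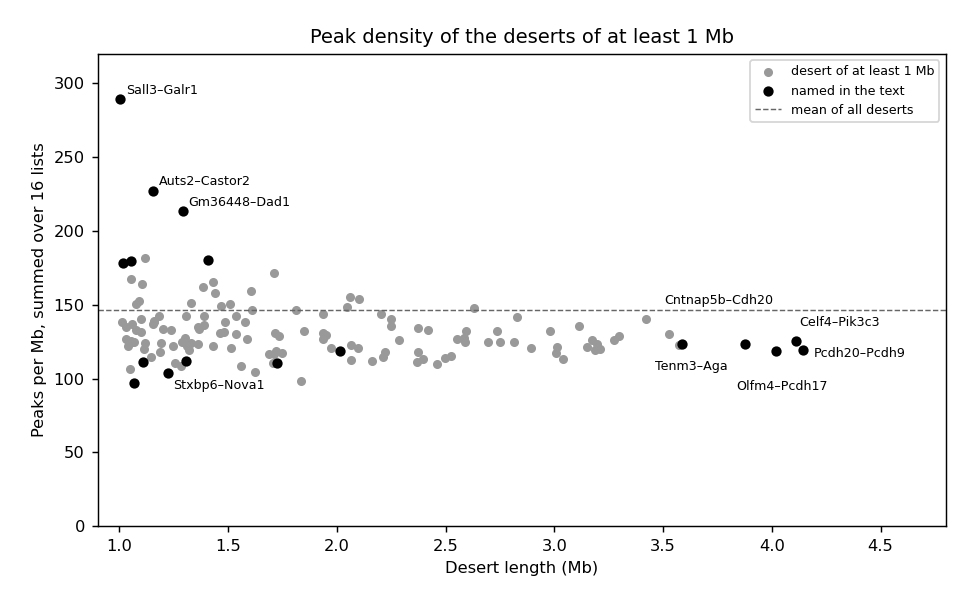
Peaks per Mb summed over the 16 lists against length, for the 141 deserts of at least 1 Mb; black points are deserts named in the text and the dashed line is the mean of all deserts, 146 per Mb. The 3 densest, Sall3–Galr1, Auts2–Castor2 and Gm36448–Dad1, are all under 1.5 Mb long, and the 5 longest lie between 119 and 126 per Mb.

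Deserts were then grouped by their flanking genes, from lists of genes chosen for their function. Of 69 autosomal developmental regulators, 52 flanked 63 deserts, which held 168 peaks per Mb with a median log2 ratio of -0.01, and 31 of 63 were above 0. Of 71 adhesion and synapse genes, 55 flanked 78 deserts with 126 peaks per Mb and a median of -0.32, and 7 of 78 were above 0. Of 46 kidney tubule and injury genes, 12 flanked 14 deserts with 152 per Mb and a median of -0.01, and 7 of 14 were above 0. Over all 731 deserts the median was -0.13 and 242 were above 0. Median lengths were 0.454, 1.43 and 0.404 Mb against 0.345 Mb for all, so length moves with the lists; its part in the difference was not tested.

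Among deserts beside developmental regulators, the most peaks per Mb were found at Med13l–Tbx3 (364 per Mb, log2 ratio 1.23, above 0 in 16 of 16 lists), Runx1–Setd4 (313, 15 of 16) and Zfp64–Tshz2 (299.7, 14 of 16). Tbx3 is a T-box factor, Runx1 a Runt factor of blood formation and Tshz2 a zinc-finger factor. Beside adhesion genes the highest were Ntm–Snx19 (188), Cdh11–Cdh5 (183) and Crbn–Lrrn1 (173). Beside kidney genes they were short: Egflam–Gdnf (11.3 kb, 5 peaks), Emx2–Rab11fip2 (28.1 kb, 12 peaks) and Ttc32–Osr1 (138 kb, 34 peaks). Gdnf is the ligand that drives ureteric budding, and Emx2 and Osr1 are regulators of early kidney development.

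Sox9 itself is flanked by deserts on both sides. The Gm11677–Sox9 desert (chr11:111926302-112582209, 0.656 Mb) held 105 peaks, 160 per Mb, with a mean log2 ratio of 0.04 and 10 of 16 lists above 0. Sox9 lists had 2, 4, 2 and 3 peaks there at 48 h and 19, 1, 3 and 7 at 10 days, and H3K4me3 lists 6, 5, 3 and 5, then 20, 6, 12 and 7. The shorter Sox9–Slc39a11 desert (0.0571 Mb) had 14 peaks. In neither did the antibodies or the times separate.

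Counting 318 V segments, the deserts contain 3322 genes that RefSeq does not class as protein-coding, over 11.1% of their area. Peaks inside them were 1.13 ± 0.140 (Sox9) and 1.15 ± 0.0471 (H3K4me3) times as dense as the area alone gives (SD, n = 8), above 1 in 7 and 8 of 8 lists, and this was not tested. Inside long noncoding RNA genes, the ratios were 1.06 ± 0.128 (Sox9) and 1.12 ± 0.0515 (H3K4me3), above 1 in 6 and 8 of 8 lists. Inside pseudogenes, which are copies of other genes, the ratios were 1.84 ± 0.462 and 1.52 ± 0.246, above 1 in 8 of 8 lists of each. Reads from near-identical copies may be placed at more than 1 site, and how the authors assigned such reads was not given in the sources used here.

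Start-site windows of desert noncoding genes seldom had a peak. Of 881 such genes with a RefSeq window, 0.525% ± 0.458 had a peak in a Sox9 list and 0.880% ± 0.584 in an H3K4me3 list (SD, n = 8). The same values were 1.58% and 2.90% for noncoding genes outside deserts and 3.27% and 7.36% for protein-coding genes. Over all lists, 95 of the 881 had a peak in at least 1 list and 92 of them in exactly 1. The other three are 2410018L13Rik, Gm32649 and Gm34297. Of 45 microRNA hairpins in deserts, 4 (8.89%) had a peak in any list, against 149 of 874 (17.0%) outside deserts. The windows of desert genes had a median of 44% G or C and 2 CG pairs, against 57% and 14 at protein-coding genes.

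The core letters of a SOX site, ACAATG or ACAAAG on either strand, occurred in 44.2% of the 1023 desert windows and in 28.1% of all windows. Among desert windows with a Sox9 peak it was 18 of 38 (47.4%), with an H3K4me3 peak 26 of 65 (40%), and with no peak 44.4%. Of the printed windows, Gm32649 reads CTTTGT from base 89 and Gm34297 CATTGT from base 233, and 2410018L13Rik has neither. The match in Gm32649 lies outside the covered bases. The match in Gm34297 lies under the H3K4me3 peak and not under the Sox9 peak. These are matches of letters only.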

How the data were processed

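Sox9 and H3K4me3 were mapped by CUT&RUN in 16 libraries of 24 samples, each with its own peak list called against the input of its pellet. The genome was mm10 and the tools were MACS3, Bowtie, Bowtie2 and Partek 10, per the submitters' processing notes; how reads were filtered, how duplicates were handled and which peak threshold applied is not given in the sources used here. Each deposited list gives a whole-number display score (not used), a ratio of antibody over local background (fold enrichment) and the −log10 p-value and −log10 q-value of the authors' caller, which were used within a list only, and depth was unknown.

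Peaks on chromosomes 1 to 19 were placed by their summit against RefSeq gene bodies of GRCm38.p6, the assembly of mm10. Area was counted between the outermost summits of a chromosome in any list. Pileup was solved from fold and p, taking 1 as added to pileup and background and p as a Poisson tail; the step finder and the density and overlap measures were tested on simulated data. Peaks overlapped when they shared 1 bp. Densities, widths, heights and recurrence were compared within lists by two-sided exact sign-flip permutation and between groups by exact permutation, with Benjamini-Hochberg adjustment over 20 tests and a threshold of 0.05. The p-values within lists treat the 8 lists of an antibody as independent samples, which for recurrence they are not fully, since lists share partners.

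The members, gene lists and tests were chosen with earlier results of these data known. Named regions were the first 12 by number of lists, then Sox9 lists, then mean rank of fold. Named deserts were the 5 longest and, of those of at least 1 Mb, the 6 with the highest and 6 with the lowest mean log2 ratio of observed to expected peaks, and for each gene list the 3 flanking deserts with the most peaks per Mb; up to 4 regions per direction of those present in all lists of 1 time and none of the other were also named. Lists of the same time and number come from 1 pellet per the labels' protocols. Their deviations from the group means, over the densities of the deserts of at least 1 Mb, correlated between -0.101 and 0.121, and 1 of 8 lists matched its own partner best, so this pairing rests on the labels. Alternatives were distances of 100 and 500 kb, −log10 q of at least 5, peaks of 2 or more steps, recurrent regions or chromosome ends left out, bodies of all RefSeq genes, an overlap of 50%, a replicate block and each replicate left out. Calculations ran in Python 3.11.15 with SciPy 1.17.1, pandas 2.3.3 and NumPy 2.4.6, and plots in Matplotlib 3.10.9.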

Additional observations from a re-analysis of the deposited data

How the results depend on the processing

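Of the alternatives other than leaving out a replicate, 90 values kept their direction and side of the threshold, 7 reversed, 7 newly passed and 6 no longer passed. With every list cut to peaks of 2 or more steps, the Sox9 width difference was 81.2 bp and the H3K4me3 width difference 18.4 bp. The differences in recurrence were 21.7 (Sox9) and 13.0 points (H3K4me3). With recurrent regions also left out (chosen after the data were seen), these were 3.69 bp, -2.81 bp, 3.49 and -0.461 points, and densities were -1.36 and -1.63 (log2; adjusted p = 0.0781 for both, since fewer of the exact permutation tests passed). Leaving out the recurrent regions alone gave a Sox9 width difference of -1.25 bp and shares of taller peaks of -0.732 (Sox9) and -1.64 points (H3K4me3), all passing. Bodies of all RefSeq genes left 57.4 Mb of desert and gave -1.69 and -1.82 points in these shares, both passing, and a Sox9 recurrence of -2.60, which did not pass. At 100 kb the H3K4me3 width difference was -1.88 bp and did not pass, and the H3K4me3 share of taller peaks was -1.21 and at 500 kb -2.02 points, both passing. With an overlap of 50%, the Sox9 difference between times in overlaps with the 3 lists of the same time was -0.174 points, against 0.314. The cause of these changes was not tested.

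Leaving out 1 replicate at a time, density lay between -0.86 and -0.78 (Sox9) and between -0.85 and -0.81 (H3K4me3), and H3K4me3 width between -2.57 and -2.14 bp. Recurrence lay between -2.35 and -1.70 and between -4.90 and -3.75 points, smaller by construction because overlaps were then sought in 1 list fewer. With overlaps still sought in the list left out (chosen after the data were seen), it lay between -2.49 and -2.31 (Sox9) and between -5.18 and -4.87 (H3K4me3). For these differences adjusted p was 0.0475 to 0.0625, because 7 lists allow no exact permutation p under 0.0156. The Sox9 width difference lay between -1.29 and -0.571 bp, the share of taller peaks between -0.207 and 0.122 points for Sox9 and between -1.52 and -0.811 for H3K4me3. By time, Sox9 gave 0.10 to 0.22 in density, 0.59 to 1.52 in number, -8.92 to 2.33 bp in width and -0.973 to 1.31 points in recurrence, and H3K4me3 0.07 to 0.13, 0.52 to 1.04, -9.17 to -2.83 bp and -0.100 to 2.38 points. Between antibodies the ranges were -0.0263 to 0.0499 in density, -1.18 to -0.65, 5.75 to 11.6 bp and -2.17 to 0.233 points. This last range compares antibodies with unequal numbers of lists; with overlaps still sought in all lists it was -1.29 to -0.276, none passing, and the recurrence by time -0.388 to 1.19 (Sox9) and 0.727 to 1.81 (H3K4me3). With a replicate block the value by time is unchanged by construction, as for the Sox9 density by time of 0.18 (exact permutation p = 0.125, the smallest that 4 pairs allow), and the block changed no call. Across times, lists share only a number: their deviations correlated between -0.108 and 0.155, and 1 of 8 lists matched its own number best.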

Other observations

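Outside the recurrent regions, H3K4me3 10 days replicate 3 had 19 peaks of 20 or more steps in deserts and 46 elsewhere on the autosomes. The other 15 lists had 0 to 3 in deserts and 0 to 8 elsewhere. The tallest lay between Hace1, a ubiquitin ligase, and Grik2, a glutamate receptor subunit (chr10:45941879-45942019), with 324 steps in that list. The other three H3K4me3 10 days lists had 0, 1 and 4 steps there, no 48 h H3K4me3 list had a peak, and 2 Sox9 lists had 2 steps each. Between Igsf11 and Lsamp (chr16:39507599-39507724) the same list had 265 steps and no other list had a peak. Beside the tallest Lrrc4c–Iftap region, chr2:98666255-98666430 had 166 and 81 steps in Sox9 10 days replicates 1 and 4 and 135 and 113 in H3K4me3 10 days replicates 1 and 3. Between Agbl1 and Ntrk3 (chr7:77913677-77913919) H3K4me3 10 days replicate 3 had 103 steps against 0 to 2 in the others, and between Sox11 and Dcdc2c (chr12:27987601-27987731) it had 81 against 0 or 1. These regions were chosen after their values were seen, and the cause was not tested.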
